A study of Mus musculus with 26 samples.

Results

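The question here is which genes of islet macrophages change with age in another way in mice that develop autoimmune diabetes than in mice that do not. Macrophages had been sorted from pancreatic islets of female NOD/ShiLtJ (NOD) mice, which become diabetic spontaneously, and of female C57BL/6J (B6) mice, which stay healthy, and their RNA was amplified and sequenced in bulk. The comparison used 14 of 26 libraries: 4 of NOD mice aged 2 weeks, 3 of NOD mice aged 12 weeks, 3 of B6 mice aged 2 weeks and 4 of B6 mice aged 12 weeks, with no treatment named in the labels. For each gene the change from 2 to 12 weeks in B6 was subtracted from the change in NOD on the log2 scale, which gives the strain-by-age interaction. A positive value means that the change was higher in NOD, a negative value that it was lower. The members are all genes of the table: 17113 of 40558 passed the filter on low counts and were tested. For each library, islet cells of several mice were pooled and live cells were sorted that carried CD45, F4/80 and CD11c and lacked CD90 and B220, so levels of Ptprc, Adgre1 and Itgax are set in part by the gate. The labels do not otherwise say whether libraries of a group had separate origins, so p-values measure the spread between these libraries.

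Each islet holds a small resident population of macrophages that sit next to blood vessels and take up material from beta cells. Interferon gamma, made by T cells and natural killer cells, acts on macrophages and raises genes of antigen presentation, guanylate-binding proteins and chemokines that draw lymphocytes. In NOD mice lymphocytes gather in and around the islets as the animals age.

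Total counts of the 14 libraries ran from 4957125 to 13859955, with group means of 12213886 (NOD 2 weeks), 9057913 (NOD 12 weeks), 8226842 (B6 2 weeks) and 6677200 (B6 12 weeks). Levels are given as CPM (counts divided by the scaled library size), which compare a gene between libraries but not one gene with another, since they are not set per length. The macrophage markers Csf1r and Adgre1 and the CD45 gene Ptprc were expressed in all 4 groups. They ran at 1260 to 3290, 312 to 624 and 875 to 1480 CPM over the libraries, in that order. Their interactions did not pass the test (-0.26, 0.24 and -0.17). Other macrophage markers did pass. Of 22 macrophage identity genes tested, 5 had a higher change in NOD and 3 a lower one. This was 36.4%, against 4.12% over all tested genes. One library stood apart: B6 2 weeks replicate 2 had Cxcl9, a gene induced by interferon gamma, at 59 CPM, against 5.49 and 15.3 CPM in the other B6 libraries of that age. In bulk RNA, fewer cells of a kind and less RNA per cell cannot be told apart. A difference in how reads of NOD alleles map to a B6 reference drops out of the interaction as far as it is the same at both ages.

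The change from 2 to 12 weeks differed between the strains for 705 genes, 4.12% of those tested (edgeR quasi-likelihood test, adjusted p under 0.05). It was higher in NOD for 400 genes (2.34%) and lower for 305 genes (1.78%). The median size of the difference was 2.04 on the log2 scale among the 400 and 1.46 among the 305. An unadjusted p under 0.05 was reached by 2872 genes. Without NOD 12 weeks replicate 3 the count was 456, and without B6 2 weeks replicate 2 it was 459.

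**Figure D1:**
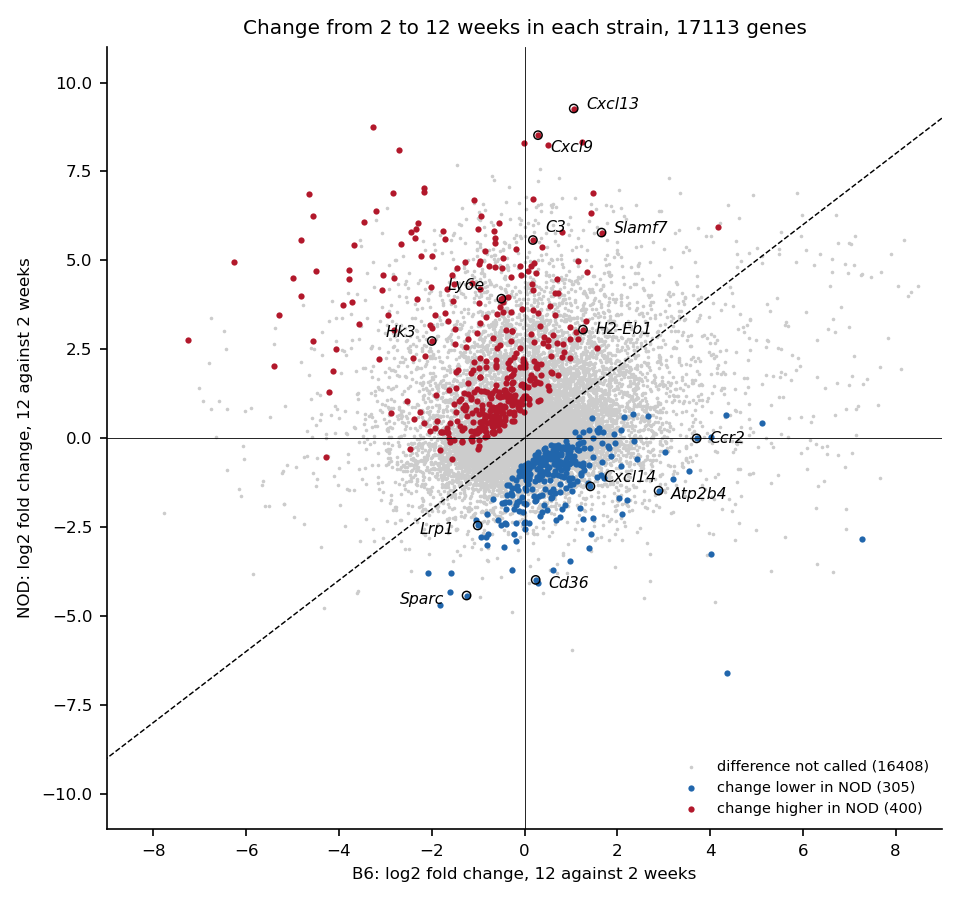
Log2 fold change from 2 to 12 weeks of age in B6 (x axis) and in NOD (y axis) for the 17113 tested genes, with 400 genes whose change was higher in NOD in red, 305 whose change was lower in blue, the others in grey, and equal change as a dashed line. C3 and Cxcl13 lie high above 0 on the NOD axis and near 0 on the B6 axis, and Ccr2 lies near 0 in NOD and at 3.71 in B6.

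The age changes called 1069 genes in NOD (6.25%) and 1086 in B6 (6.35%). The strain difference called 1080 genes at 2 weeks (6.31%) and 1577 at 12 weeks (9.22%). Of the 400 genes with a higher change in NOD, 270 rose with age in NOD, while 109 fell with age in B6. In 228 the NOD rise alone passed the test and in 80 the B6 fall alone. In 29 both passed, in 13 both strains rose and in 50 neither change passed by itself. Of the 305 genes with a lower change in NOD, 170 fell in NOD and 112 rose in B6. There 139 had the NOD fall alone, 89 the B6 rise alone, 22 both, and 45 neither. Among the 400 genes, 197 were higher in NOD at 12 weeks only, 98 were lower in NOD at 2 weeks only, and 46 crossed from lower to higher. Among the 305, 175 were lower in NOD at 12 weeks only, 57 higher at 2 weeks only, and 20 crossed from higher to lower. These component comparisons share their samples with the interaction and show what it is made of.

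The smallest adjusted p belonged to C3 (chr17:57203970-57228136, GRCm38), the central protein of the complement cascade. C3 stood at 39, 35.6, 20.8 and 32.4 CPM in the NOD libraries of 2 weeks and at 1610, 1280 and 1680 CPM at 12 weeks. In B6 it stood at 18, 22.8 and 16.2 CPM at 2 weeks and at 15.2, 21, 18.9 and 30.6 CPM at 12 weeks. The 3 NOD libraries of 12 weeks lay far above all others, and the B6 ages overlapped. The interaction was 5.39 ± 0.30 (SE; adjusted p = 3.36e-11, edgeR). Cxcl13 (chr5:95956951-95961068) encodes a chemokine that attracts B cells. It had 1.97, 2.11, 3.82 and 3.12 CPM in NOD at 2 weeks and 1230, 1290 and 2540 CPM at 12 weeks. All B6 libraries lay between 2.15 and 9.29 CPM, and the interaction was 8.21 ± 0.50 (adjusted p = 1.18e-08, edgeR; 0.136 with limma-voom).

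Ly6e (chr15:74955051-74959905), a surface protein held by a lipid anchor and inducible by interferon, showed another shape. It was at 51.6, 55.7, 60 and 50.8 CPM in NOD at 2 weeks and at 780, 745 and 943 CPM at 12 weeks. In B6 it was already at 841, 2300 and 1860 CPM at 2 weeks and at 1070, 1240, 1140 and 1260 CPM at 12 weeks. The NOD ages were separate and the B6 ages overlapped (interaction 4.42 ± 0.30, adjusted p = 2.79e-09, edgeR). The strain difference was -4.94 at 2 weeks and -0.52 at 12 weeks, where it no longer passed the test (adjusted p = 0.139, edgeR). Slamf7, the gene of a surface receptor, was likewise far lower in NOD than in B6 at 2 weeks, but it rose in B6 too. It was at 0.475 to 2.66 CPM in NOD at 2 weeks and 55.6 to 87 CPM at 12 weeks, against 23.6 to 63.4 and 86.7 to 140 CPM in B6. The rise was 5.78 in NOD and 1.66 in B6, with no overlap of ages in either strain, and the strain difference was -4.90 at 2 weeks and -0.78 at 12 weeks (adjusted p = 0.194, edgeR).

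**Figure D2:**
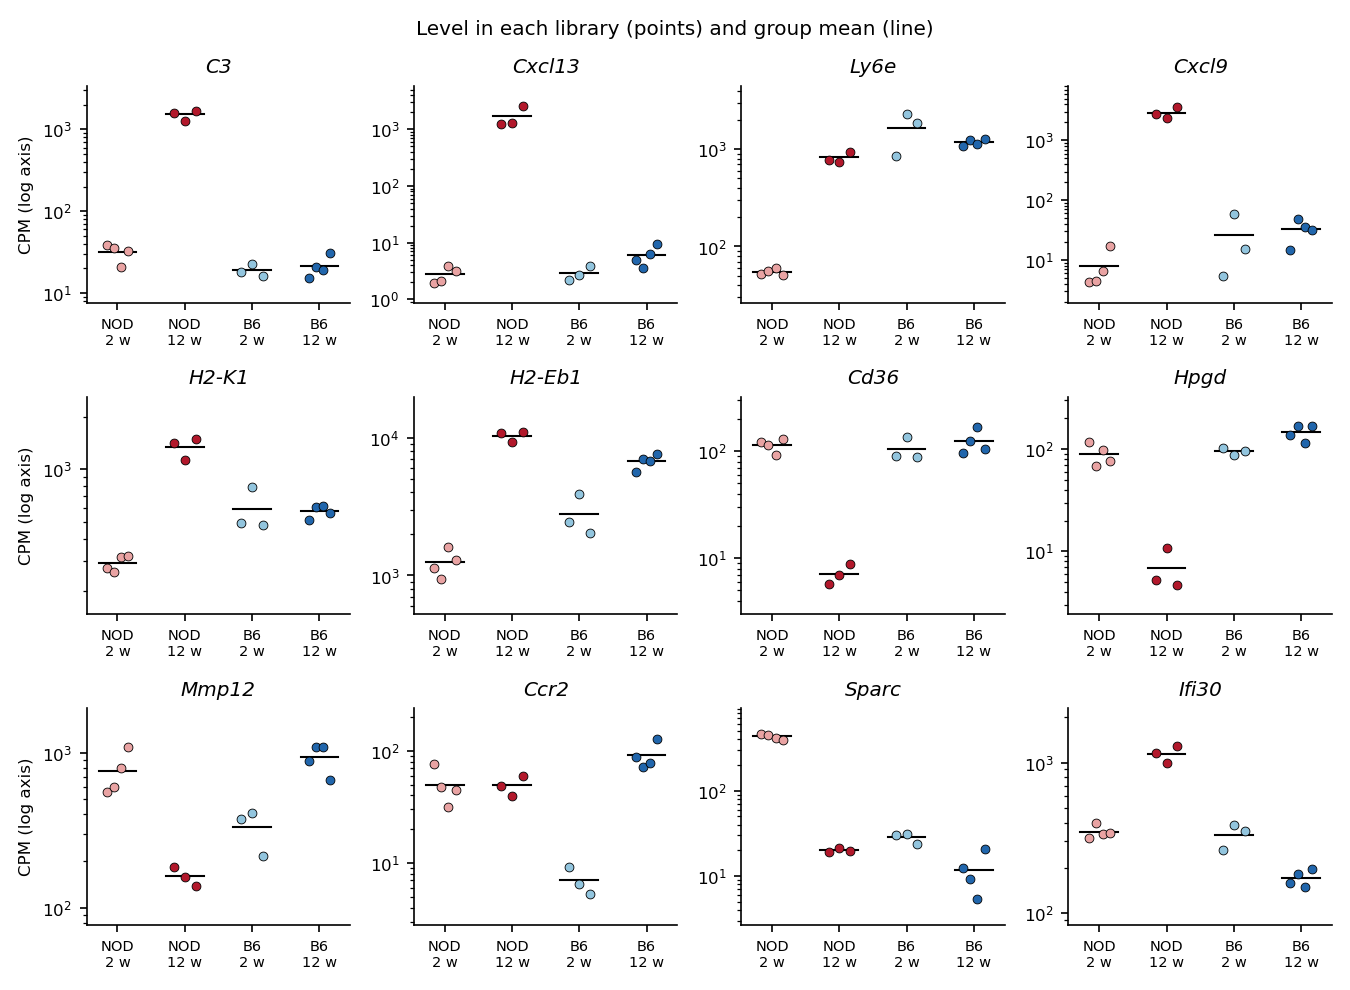
Level of 12 genes in CPM (log axis) in each of the 14 libraries (points), with the group mean as a line, for NOD and B6 at 2 and 12 weeks. The 3 NOD libraries of 12 weeks lie apart from the NOD libraries of 2 weeks in every panel except Ccr2, where the B6 ages are apart (5.27 to 9.19 against 71.6 to 128 CPM).

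Genes induced by interferon gamma held the highest share of called members of any list examined. This list shares 2 genes with the chemokine list, 2 with the Fc receptor list and 1 with the MHC class II list. Of 26 tested members, 19 had a higher change in NOD (73.1%), 0 a lower one, and the median interaction was 2.49, against 0.07 over all genes. In NOD alone 19 members rose with age. In B6 2 rose and 3 fell. At 2 weeks 8 members were lower in NOD and 2 higher, and at 12 weeks 16 were higher and 0 lower. Without B6 2 weeks replicate 2, the library in which these genes were high, 16 members were called and the median was 2.16.

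Of the called members, Cxcl9, a chemokine for activated T cells, rose from 4.27, 4.43, 6.56 and 16.8 CPM to 2730, 2380 and 3620 CPM in NOD. In B6 Cxcl9 lay between 5.49 and 59 CPM at 2 weeks and between 14.8 and 47.7 CPM at 12 weeks (8.23 ± 1.09, adjusted p = 0.00204, edgeR). Cxcl10, which acts on the same receptor, rose in NOD and fell in B6. It was at 51.7 to 107 CPM and then 132 to 217 CPM in NOD, and at 66.1 to 164 CPM and then 20.7 to 31.3 CPM in B6, with no overlap of ages in either strain (3.12 ± 0.41, adjusted p = 3.07e-05, edgeR). Irf1, a transcription factor of the pathway, had an interaction of 1.61 (adjusted p = 0.00965, edgeR), and Cd274, the gene of the inhibitory ligand PD-L1, one of 5.95 (adjusted p = 0.00797, edgeR).

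Effector genes of the same list act on pathogens inside cells. The guanylate-binding protein gene Gbp4 had 3.13 to 9.47 CPM in NOD at 2 weeks and 62.9 to 76 CPM at 12 weeks. In B6 it had 16.7, 70.9 and 19 CPM at 2 weeks and 5.13, 16.8, 6.24 and 14.7 CPM at 12 weeks (5.26 ± 0.67, adjusted p = 2.84e-05, edgeR). Of 6 guanylate-binding protein genes tested, 4 were called, all with a higher change in NOD. Gbp4 and Gbp8 overlap on chromosome 5, and the sources used here do not say how reads in the shared stretch were counted. Of 7 immunity-related GTPase genes tested, 6 were called, all higher (Irgm1 1.76, Irgm2 2.67, Ifi47 3.30, Igtp 3.83, Tgtp2 7.32 and Iigp1 10.83). The members of these families resemble each other and their single values are uncertain.

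Genes known mainly from the type I interferon response held a smaller share of called members than the interferon-gamma list. Of 30 tested members, 3 had a higher change in NOD (Oasl2, Irf7 and Zbp1) and 0 a lower one. This was 10%, with a median of 1.13, against 4.12% and 0.07 over all tested genes. At 2 weeks 16 of the 30 were lower in NOD than in B6 and 0 higher. At 12 weeks 5 were lower and 0 higher. With each library left out in turn, 1 to 4 members were called. No test compared this list with the interferon-gamma list.

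Promoters show what sequence these genes carry near their start. In RefSeq windows from 250 bases before to 50 bases after a gene's start (GRCm38.p6), 2 motifs were searched on both strands: TTCNNNGAA, the interferon-gamma-activated site (GAS), and GAAANNGAA, a core of the interferon-stimulated response element (ISRE). The motifs can overlap. Of 12249 tested genes with a window, 6.9% held a GAS match and 7.4% an ISRE core match. Among genes with a higher change in NOD the shares were 11.2% and 15.5% (304 windows), and among genes with a lower change 9.0% and 9.0% (221 windows). The 16 interferon-gamma members with a window included 7 with a GAS match and 12 with an ISRE core match. The type I list, of which 3 members were called, had 22 windows, 5 with a GAS match and 13 with an ISRE core match. The 5 called genes of the interferon-gamma and chemokine lists with a window and the smallest adjusted p among the named genes considered are shown as the 250 bases before the start, 5′ to 3′ on the gene's strand, with matches in capitals. Cxcl10 (chr5:92348890-92349139, minus strand) held 1 ISRE core match, Cxcl14 (chr13:56296552-56296801, minus strand) held 1 of each, and Cxcl13 (chr5:95956689-95956938, plus strand), Ccl8 (chr11:82114935-82115184, plus strand) and Ifi47 (chr11:49076337-49076586, plus strand) held none.
Cxcl10: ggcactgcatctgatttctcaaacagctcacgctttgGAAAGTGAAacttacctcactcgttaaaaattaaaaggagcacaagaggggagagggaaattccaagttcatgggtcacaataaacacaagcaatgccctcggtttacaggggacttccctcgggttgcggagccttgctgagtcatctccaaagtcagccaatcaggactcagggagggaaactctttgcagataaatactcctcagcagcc
Cxcl14: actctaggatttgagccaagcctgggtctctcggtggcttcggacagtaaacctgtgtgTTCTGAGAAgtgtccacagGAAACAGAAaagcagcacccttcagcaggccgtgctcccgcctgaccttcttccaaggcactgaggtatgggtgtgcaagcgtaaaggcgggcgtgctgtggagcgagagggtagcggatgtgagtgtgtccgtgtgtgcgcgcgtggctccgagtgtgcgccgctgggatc
Cxcl13: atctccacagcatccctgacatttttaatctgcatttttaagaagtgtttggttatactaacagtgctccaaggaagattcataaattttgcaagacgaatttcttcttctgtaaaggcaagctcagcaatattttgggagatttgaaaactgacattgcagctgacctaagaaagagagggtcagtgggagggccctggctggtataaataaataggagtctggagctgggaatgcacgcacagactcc
Ccl8: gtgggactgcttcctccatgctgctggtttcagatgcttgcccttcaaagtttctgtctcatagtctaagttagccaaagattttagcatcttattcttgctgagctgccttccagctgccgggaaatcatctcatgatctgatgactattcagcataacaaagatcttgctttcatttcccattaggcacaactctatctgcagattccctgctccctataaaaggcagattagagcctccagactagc
Ifi47: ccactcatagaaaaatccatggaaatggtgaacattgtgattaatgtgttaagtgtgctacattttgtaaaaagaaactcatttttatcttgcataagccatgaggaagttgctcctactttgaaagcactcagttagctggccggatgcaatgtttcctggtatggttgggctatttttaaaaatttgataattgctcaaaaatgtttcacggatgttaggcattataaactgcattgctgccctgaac
A match describes letters and not binding. Cxcl14, with both motifs, fell with age in NOD, while Cxcl13, with neither in this window, had one of the largest rises.

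Genes that present peptides to CD8 T cells on MHC class I held nearly as high a share of called members. Of 18 tested, 13 had a higher change in NOD (72.2%) and 0 a lower one, with a median of 1.69, and 5 (H2-M3, Tap2, Tapbpl, Erap1 and Calr) were not called. In NOD 15 rose with age, and in B6 4 fell and 0 rose. H2-K1 (chr17:33996017-34000347), a heavy chain of class I, had 273, 259, 316 and 320 CPM in NOD at 2 weeks and 1410, 1140 and 1490 CPM at 12 weeks. In B6 it had 496, 790 and 482 CPM, then 516, 613, 620 and 566 CPM, and these overlapped (2.23 ± 0.23, adjusted p = 8.56e-07, edgeR). The light chain gene B2m rose in NOD from 2370 to 3710 CPM to 5750 to 8950 CPM and did not pass in B6 (4460 to 6630, then 3830 to 4890 CPM; interaction 1.67 ± 0.23). Tap1, which carries peptides into the endoplasmic reticulum, rose in NOD (1.84 ± 0.30) and fell in B6 (-1.16 ± 0.29). The 5 tested genes of the immunoproteasome and its activator (Psmb8, Psmb9, Psmb10, Psme1 and Psme2) were all called, from 1.32 to 3.32, and so was Nlrc5, the transactivator of class I genes (1.71). Without B6 2 weeks replicate 2, 10 of the 18 were called.

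Of 15 tested genes of MHC class II presentation, 9 had a higher change in NOD (60%) and 0 a lower one (median 1.15). In NOD 11 members rose with age and 0 fell, and in B6 6 rose and 1 fell. The class II chain H2-Eb1 went from 1140, 950, 1610 and 1290 CPM to 10800, 9270 and 10900 CPM in NOD. In B6 it went from 2430, 3910 and 2050 CPM to 5590, 6950, 6790 and 7560 CPM. No ages overlapped in either strain, and the rise was larger in NOD (3.05 against 1.26; interaction 1.79 ± 0.26, adjusted p = 8.68e-05, edgeR). Cd74, the invariant chain that escorts class II, rose by 2.28 in NOD and 0.81 in B6 and reached the same range in both, 15500 to 19800 and 14700 to 17800 CPM. Its strain difference was -1.35 at 2 weeks and 0.12 at 12 weeks (adjusted p = 0.772, edgeR). Ifi30, a lysosomal thiol reductase that prepares antigens for class II, parted in both directions. It rose in NOD from 315, 399, 336 and 343 CPM to 1150, 999 and 1290 CPM and fell in B6 from 264, 383 and 350 CPM to 160, 182, 149 and 196 CPM (2.67 ± 0.21, adjusted p = 1.55e-08, edgeR). Without B6 2 weeks replicate 2, 6 of the 15 were called. NOD alleles at H2 genes differ from the reference, so levels set between strains are less certain than changes within a strain.

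**Figure D3:**
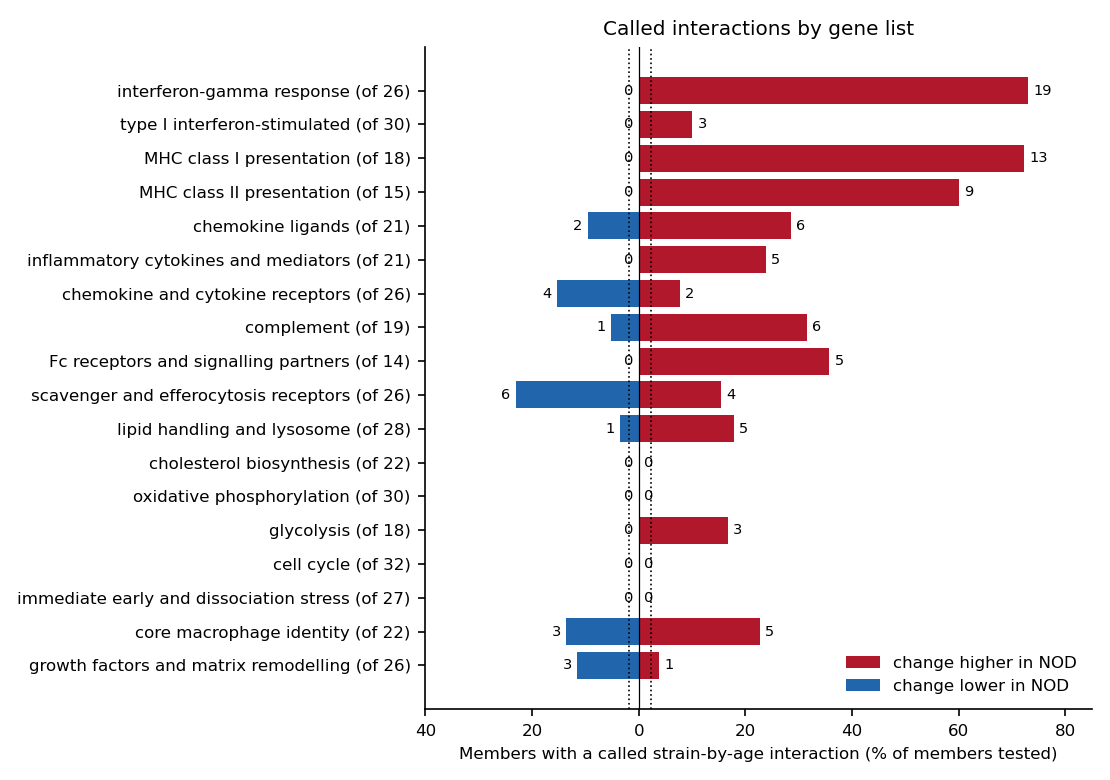
Percent of tested members of 18 gene lists with a called strain-by-age interaction, to the right (red) where the change was higher in NOD and to the left (blue) where it was lower, with member counts at the bars and the shares over all tested genes (2.34% and 1.78%) as dotted lines. The interferon-gamma, MHC class I and MHC class II lists reach 73.1%, 72.2% and 60%, and 4 lists have 0 called members.

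Among chemokine ligands, 6 of 21 tested had a higher change in NOD and 2 a lower one (together 38.1%, against 4.12% over all genes). With each library left out in turn these counts were 5 to 7 and 1 to 2, and 2 were lower only without B6 12 weeks replicate 1 or 2. Cxcl9, Cxcl10 and Cxcl13 are described above. Ccl8, a ligand for receptors on monocytes and T cells, was at 0.166 to 1.37 CPM in NOD at 2 weeks and at 181, 149 and 245 CPM at 12 weeks, and at 0.119 to 0.79 CPM in all 7 B6 libraries. So few counts lie behind the low groups that the fitted size depends on the prior count (adjusted p = 3.07e-05, edgeR). Ccl5, which attracts T cells, and Ccl12 were also higher (adjusted p = 0.00249 and 0.042, edgeR). Cxcl9, Cxcl10, Cxcl13 and Ccl8 stayed called in all 14 omissions of a library. In most omissions only 5 chemokines were higher, so at most 1 of Ccl5 and Ccl12 was called there. Cxcl14, a chemokine made by many resting tissues, fell in NOD from 327, 315, 330 and 281 CPM to 118, 131 and 117 CPM. In B6 it rose from 19.9, 13.1 and 17.9 CPM to 59.2, 53.8, 38.3 and 30.5 CPM, with no overlap of ages (-2.78 ± 0.30, adjusted p = 1.78e-06, edgeR). Pf4, a chemokine that binds heparin, also had a lower change (-2.05, adjusted p = 0.0433, edgeR). Cxcl14 stayed called in all 14 omissions, so Pf4 lost its call unless B6 12 weeks replicate 1 or 2 was left out.

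Of 21 tested inflammatory cytokines and mediators, 5 had a higher change in NOD and 0 a lower one (23.8%, against 4.12% over all genes). The count was 3 when NOD 2 weeks replicate 2, 3 or 4, NOD 12 weeks replicate 1 or 3, B6 2 weeks replicate 1 or B6 12 weeks replicate 2 was left out, and Ptgs1, a cyclooxygenase, kept its call in 6 of 14 omissions. Il1rn, the antagonist of the interleukin-1 receptor, rose in NOD from 19.3 to 36.9 CPM to 206 to 415 CPM and lay at 7.04 to 24.5 CPM over both ages in B6 (3.41 ± 0.48, adjusted p = 0.000122, edgeR). Il12b, a subunit shared by interleukins 12 and 23, went from 1.09 to 2.29 CPM to 45.3, 120 and 73.7 CPM in NOD. In B6 it was at 1.91, 18.3 and 2.45 CPM at 2 weeks, the high value again in replicate 2, and at 1.61 to 8.24 CPM at 12 weeks (6.27 ± 0.93, adjusted p = 0.000365, edgeR; 4.47 without that library). Il1b rose in NOD from 277 to 306 CPM to 797 to 1230 CPM, and its interaction of 1.29 was called in 5 of 14 fits that each left out a library. Tnf (1.29, adjusted p = 0.223, edgeR) was not called.

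Of 26 chemokine and cytokine receptors tested, 2 had a higher change in NOD and 4 a lower one (together 23.1%, against 4.12% over all genes). With each library left out in turn the counts were 0 to 4 higher and 2 to 4 lower. None was higher without NOD 12 weeks replicate 1, and 1 was higher without NOD 2 weeks replicate 1 or 4, NOD 12 weeks replicate 3 or B6 2 weeks replicate 1 or 2. Without NOD 12 weeks replicate 2 or B6 2 weeks replicate 1, 2 were lower. The largest difference was that of Ccr2 (chr9:124101950-124113557), the receptor that brings monocytes out of the blood. It rose in B6 from 9.19, 6.53 and 5.27 CPM to 87.9, 71.6, 78 and 128 CPM. In NOD it was at 75.6, 47.1, 31.7 and 44.5 CPM at 2 weeks and at 48.6, 39.7 and 59.8 CPM at 12 weeks, within 1 range (-3.72 ± 0.43, adjusted p = 4.13e-06, edgeR). Ifngr1, the ligand-binding chain of the interferon-gamma receptor, fell in NOD from 365 to 494 CPM to 184 to 244 CPM. It lay at 315 to 365 and 292 to 327 CPM in B6 (-0.81 ± 0.21, adjusted p = 0.0236, edgeR), and the call held in 10 of 14 fits that each left out a library. The other lower members were Tgfbr1 (-1.49, adjusted p = 1.78e-05, edgeR) and Il13ra1 (-1.48, adjusted p = 0.0237, edgeR). The call of Il13ra1 held in 11 of 14 such fits. Outside this list, Il7r, the alpha chain of the interleukin-7 receptor, fell in NOD from 187, 156, 153 and 172 CPM to 45.3, 35.7 and 27 CPM. In B6 it rose from 44.4, 48.4 and 33.5 CPM to 77.8, 77.5, 82.8 and 48.6 CPM (-2.98 ± 0.32, adjusted p = 1.96e-06, edgeR). S1pr1, also outside the list, is a receptor for the lipid sphingosine-1-phosphate. It fell in NOD (86.9 to 127, then 11.6 to 32.4 CPM) and rose in B6 (60.9 to 101, then 144 to 213 CPM), an interaction of -3.56 ± 0.38.

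Of 19 tested complement members, 6 had a higher change in NOD and 1 a lower one (together 36.8%, against 4.12% over all genes). Beside C3 these were the 3 chains of C1q, which starts the classical pathway, with C1qc at 1.63, C1qb at 0.90 and C1qa at 0.76, and Cfp. The calls of C1qc and C1qb held in all 14 fits that each left out a library, that of C1qa in 4. C1qc rose in NOD from 1390 to 1670 CPM to 2420 to 2590 CPM and fell in B6 from 1830 to 2220 CPM to 907 to 1310 CPM, without overlap. Cfp, properdin, which stabilises the C3-cleaving enzyme, rose in NOD from 30 to 52.8 CPM to 130, 132 and 178 CPM and fell in B6 from 28.3, 33.4 and 59.1 CPM to 13.6, 17, 21.6 and 7.23 CPM (3.35 ± 0.43, adjusted p = 1.84e-05, edgeR). Itgax, the sixth, is the CD11c of the gate. Of 14 Fc receptor and partner genes, 5 (35.7%) had a higher change in NOD, among them Fcgr1, Fcgr4, Fcer1g and Ptpn6, and 0 a lower one. The calls of Fcgr1 and Fcgr4 are also counted in the interferon-gamma list. Fcgr1 did not pass in NOD (611 to 818, then 696 to 1020 CPM) and fell in B6 from 251 to 307 CPM to 105 to 179 CPM.

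Among receptors for lipids, debris and dying cells, 6 of 26 had a lower change in NOD and 4 a higher one. Together this was 38.5%, against 4.12% over all tested genes. With each library left out in turn, 4 to 6 were lower and 0 to 3 higher, so that the 4 higher calls never held together. None was higher without NOD 12 weeks replicate 3, 1 without NOD 2 weeks replicate 2, NOD 12 weeks replicate 1 or replicate 2 of either B6 group, and 2 without B6 12 weeks replicate 3. The largest fall was that of Cd36 (chr5:17781690-17888801), a receptor for oxidised lipoprotein and fatty acids. It stood at 121, 115, 91.4 and 130 CPM in NOD at 2 weeks and at 5.71, 6.93 and 8.87 CPM at 12 weeks. In B6 it stood at 89.6, 136 and 87.3 CPM and then at 95.8, 124, 169 and 105 CPM. The NOD libraries of 12 weeks lay below all others and the B6 ages overlapped (-4.24 ± 0.34, adjusted p = 1.64e-08, edgeR). Trem2, a lipid-sensing receptor, fell in NOD from 156 to 191 CPM to 43.5 to 66.5 CPM and did not pass in B6 (-2.25 ± 0.33). Siglech, a sialic acid-binding lectin used as a marker of plasmacytoid dendritic cells, fell in NOD from 110 to 188 CPM to 11.3 to 30.6 CPM and rose in B6 from 34.5 to 80 CPM to 94.8 to 189 CPM (-4.14 ± 0.47). Lrp1, an endocytic receptor for apolipoprotein E and protease complexes, fell in both strains, more in NOD (-2.46) than in B6 (-1.01). Mrc1 (-1.41) and Mertk (-1.34), a mannose receptor and a receptor kinase for dying cells, fell in NOD and did not pass in B6. Mertk was not called without NOD 12 weeks replicate 2 or without B6 2 weeks replicate 2 (adjusted p = 0.0553 in the latter, edgeR).

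The pattern of Cd36 was shared by further genes with the smallest adjusted p. Hpgd (chr8:56294585-56321043), the enzyme that inactivates prostaglandin E2, fell in NOD from 118, 68.5, 97.8 and 76.1 CPM to 5.24, 10.7 and 4.68 CPM. In B6 it was at 103, 87.8 and 94.9 CPM and then at 136, 168, 115 and 166 CPM (-4.34 ± 0.37, adjusted p = 4.34e-08, edgeR). Ptgs2, which makes the precursor of that prostaglandin, had the opposite sign. It rose in NOD from 33.8 to 59.3 CPM to 197 to 447 CPM (interaction 3.01 ± 0.61, adjusted p = 0.0119, edgeR), and without B6 2 weeks replicate 2 its adjusted p was 0.0557 (edgeR). Slco2b1, an organic anion transporter, fell in NOD from 208 to 246 CPM to 25.5 to 42.7 CPM against 254 to 341 and 209 to 284 CPM in B6 (-2.46 ± 0.25). Mef2c, a transcription factor, fell from 265 to 353 CPM to 83.5 to 102 CPM against 176 to 200 and 202 to 237 CPM (-1.98 ± 0.22). Apoe, the apolipoprotein that Lrp1 binds, fell in NOD from 3770 to 4700 CPM to 1860 to 2710 CPM and did not pass in B6 (4970 to 8580, then 8250 to 10100 CPM; -1.16 ± 0.23).

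Of 28 lipid and lysosome genes, 5 had a higher change in NOD and 1, Apoe, a lower one (together 21.4%, against 4.12% over all genes). With each library left out in turn the counts were 3 to 7 higher and 1 to 3 lower. There were 3 higher without NOD 2 weeks replicate 2, NOD 12 weeks replicate 1 or 3 or B6 2 weeks replicate 2, and 2 or 3 lower without B6 2 weeks replicate 1 or 3 or B6 12 weeks replicate 1. Grn, progranulin, a lysosomal protein precursor, rose in NOD from 1180 to 1250 CPM to 1570 to 2000 CPM and fell in B6 from 1420 to 1700 CPM to 743 to 1010 CPM (1.42 ± 0.18, adjusted p = 1.84e-05, edgeR). Nr1h3, the oxysterol receptor LXR alpha, went from 1.83 to 4.41 CPM to 74.9 to 120 CPM in NOD (6.24 ± 1.28, adjusted p = 0.0138, edgeR). In the scaling of all 26 libraries, B6 lay at 0.552 to 14.1 CPM at 2 weeks and 0.162 to 5.36 CPM at 12 weeks. Without B6 2 weeks replicate 2 the interaction of Nr1h3 was 4.19 (adjusted p = 0.0298, edgeR). Of 22 macrophage identity genes, 5 had a higher change and 3 a lower one, and 1 was lower without NOD 12 weeks replicate 2 or B6 2 weeks replicate 2. Spi1, the transcription factor PU.1, did not pass in NOD (218 to 255, then 260 to 303 CPM) and fell in B6 from 294 to 318 CPM to 130 to 203 CPM. Outside the lists, Acp5, tartrate-resistant acid phosphatase, rose in both strains, from 149 to 200 CPM to 1350 to 1560 CPM in NOD and from 49 to 105 CPM to 111 to 205 CPM in B6 (2.15 ± 0.30, adjusted p = 5.1e-05, edgeR). Cst3, a cysteine protease inhibitor, did not pass in NOD (2240 to 2630, then 1710 to 2220 CPM) and rose in B6 from 1100 to 1210 CPM to 2120 to 2840 CPM (-1.51 ± 0.19, adjusted p = 1.11e-05, edgeR).

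Some genes went opposite ways in the strains. Mmp12, macrophage elastase, fell in NOD from 561, 600, 795 and 1080 CPM to 183, 159 and 138 CPM. In B6 it rose from 373, 409 and 215 CPM to 885, 1080, 1090 and 666 CPM, with no overlap of ages in either strain (-3.73 ± 0.34, adjusted p = 7.39e-07, edgeR). Mmp14, a membrane-bound protease that activates other matrix proteases, did the reverse: it rose from 128 to 138 CPM to 304 to 435 CPM in NOD and fell from 196 to 229 CPM to 126 to 166 CPM in B6 (2.12 ± 0.22). Atp2b4, a calcium pump of the plasma membrane, crossed between the strains. It was at 75.7 to 177 CPM in NOD and 8.82 to 16.9 CPM in B6 at 2 weeks, and at 32.9 to 56 and 75.7 to 121 CPM at 12 weeks (-4.37 ± 0.42, adjusted p = 4.60e-07, edgeR). Hk3, a hexokinase of myeloid cells, crossed the other way, from 4.9 to 11.9 CPM to 45.9 to 60.8 CPM in NOD and from 21.1 to 79.4 CPM to 7.7 to 16.2 CPM in B6 (4.73 ± 0.54, adjusted p = 3.98e-06, edgeR). Sparc, a secreted matrix glycoprotein, fell in both strains from unlike starts: from 391 to 462 CPM to 19.1 to 21.1 CPM in NOD and from 24 to 31.5 CPM to 5.37 to 20.5 CPM in B6 (-3.18 ± 0.38, adjusted p = 6.68e-06, edgeR).

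Of the lists in that plot, 4 had 0 called members by edgeR. Of 32 tested cell cycle genes, 19 fell with age in B6 and 2 in NOD, yet no interaction passed (median 0.57). An unadjusted p under 0.05 was reached by 8 of them, DESeq2 called 2 and limma-voom 1, and Mki67, a marker of dividing cells, had an interaction of 1.15 (adjusted p = 0.0707, edgeR). The B6 and NOD falls were therefore not shown to differ. Of 30 genes of oxidative phosphorylation, 7 were higher in NOD at 2 weeks and 16 at 12 weeks, with 0 lower at either age, and no interaction passed (median 0.34; 7 at an unadjusted p under 0.05, 3 by DESeq2, 1 by limma-voom). No member of the cholesterol biosynthesis list (22 tested) or the immediate early list (27 tested) passed by edgeR. In each of these lists 4 members had an unadjusted p under 0.05 and limma-voom called 1, while DESeq2 called 1 of the first and 2 of the second.

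The libraries of 4 and 8 weeks place these changes in time, in 1 scaling of all 26 libraries and with no test. In NOD the C3 mean was 30.2, 103, 1210 and 1410 CPM at 2, 4, 8 and 12 weeks. Cxcl9 ran 7.55, 95, 1590 and 2700 CPM. Most of the rise of both genes lay before 8 weeks on the log scale. Cxcl13 was at 2.6, 3.94, 168 and 1570 CPM, with a further step after 8 weeks. Cd36 went down at every step, from 108 to 50.1, 14.7 and 6.66 CPM, and Hpgd from 85.3 to 55.3, 12.7 and 6.34 CPM. Sparc fell earliest, from 408 to 46.9 CPM by 4 weeks. Mmp12 was at 717, 1220, 578 and 148 CPM, so its fall followed a higher value at 4 weeks. In B6, Ccr2 was at 6.49, 33 and 84 CPM at 2, 4 and 12 weeks, and the class II chain H2-Eb1 at 2600, 9360 and 6190 CPM. The mean log2 level of the interferon-gamma list in this scaling was 3.45 ± 0.14, 3.92 ± 0.22, 5.42 ± 0.09 and 5.83 ± 0.19 (SD over libraries) in NOD and 4.12 ± 0.76, 3.58 ± 0.25 and 3.83 ± 0.09 in B6.

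**Figure D4:**
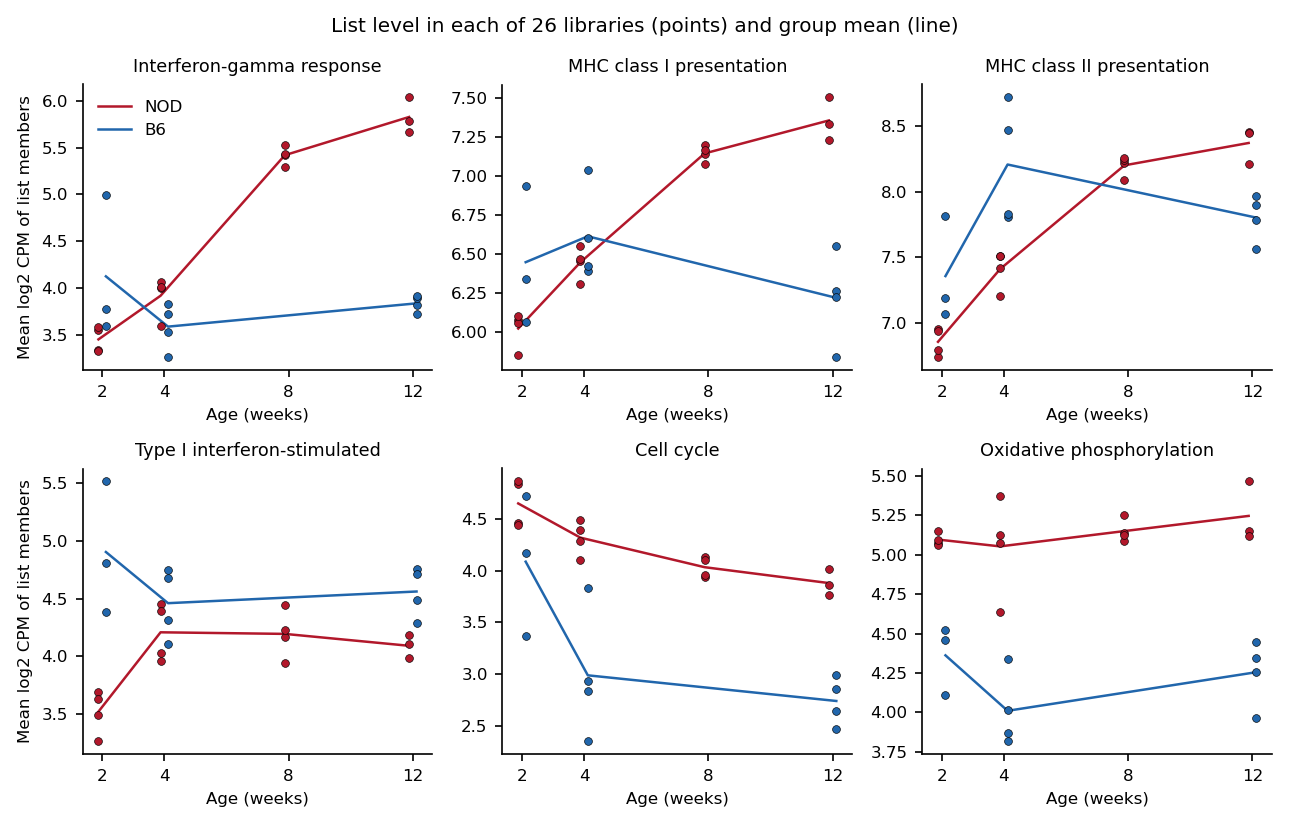
Mean log2 CPM of the members of 6 gene lists in each of 26 libraries (points) against age in weeks, with lines through the group means, for NOD (red; 2, 4, 8 and 12 weeks) and B6 (blue; 2, 4 and 12 weeks). The NOD interferon-gamma list runs from 3.45 at 2 weeks to 5.83 at 12 weeks, and one B6 library of 2 weeks stands at 4.99.

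Markers of other cells were read in the same libraries. The summed level of the islet endocrine list was 848.5 to 3819 CPM in NOD at 2 weeks, 2705 to 4128 CPM in NOD at 12 weeks, 1249 to 2149 CPM in B6 at 2 weeks and 317.5 to 696.8 CPM in B6 at 12 weeks. It was thus lowest in the older B6 group. Of its 19 tested members 1 was called (5.26%, near the 4.12% over all tested genes), the hormone gene Sst (3.02 ± 0.65). The insulin genes Ins1 and Ins2 had interactions of 1.90 and 1.49 (adjusted p = 0.243 and 0.348, edgeR). With the mean endocrine and acinar level as a covariate, 91 genes were called (50 higher, 41 lower), 86 of them among the 705. All 705 kept their sign. The median ratio of the estimates to those without the covariate was 0.999, and that of the standard errors was 1.56. Single estimates moved in both directions. Zbp1 went from 3.22 to 1.69 and C1qa from 0.76 to 0.42, while Iigp1 went from 10.83 to 15.72 and C3 from 5.39 to 5.9. Of the lists, Irf1 alone of the interferon-gamma genes was then called, beside H2-D1, H2-K1 and Tap1 of class I, H2-DMa, H2-Oa and Ifi30 of class II, and C1qc, C3 and Cfp of complement. Cxcl13, Ccl8, Ly6e, Cd36, Hpgd, Mmp12, Atp2b4, Il7r, Ccr2 and Hk3 also kept the call (adjusted p at most 0.011, edgeR), while Cxcl9, Gbp4, B2m, H2-Eb1 and Cd74 did not (adjusted p = 0.0587 to 0.206, edgeR). Estimates of these went from 8.23 to 7.32 (Cxcl9), 5.26 to 5.25 (Gbp4), 1.67 to 1.05 (B2m), 1.79 to 1.58 (H2-Eb1) and 1.47 to 1.21 (Cd74).

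**Figure D5:**
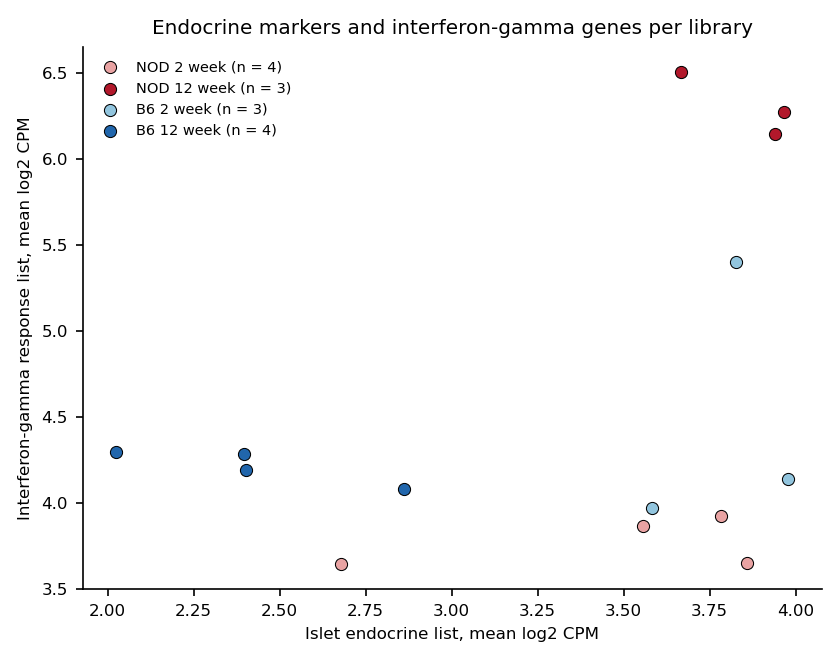
Mean log2 CPM of the interferon-gamma list (y axis) against that of the islet endocrine list (x axis) in the 14 libraries, coloured by strain and age. The 3 NOD libraries of 12 weeks are highest on the y axis, at endocrine levels that the NOD and B6 libraries of 2 weeks also reach.

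Of 11 tested T cell markers 1 was called (9.09%, against 4.12% over all tested genes), Il7r, which other cells also express. The list summed to 247.3 to 329.1 CPM in NOD at 2 weeks, 133.1 to 170.2 CPM in NOD at 12 weeks, 162.6 to 196.1 CPM in B6 at 2 weeks and 110.3 to 142 CPM in B6 at 12 weeks. Of these sums Il7r alone was 153 to 187 CPM in NOD at 2 weeks and 27 to 45.3 CPM at 12 weeks. With the markers weighted equally the order of the NOD ages was the other way: their mean log2 CPM was 1.485 to 1.897 in NOD at 2 weeks and 2.353 to 2.463 in NOD at 12 weeks, against 1.578 to 2.32 over the B6 libraries. The median interaction of the T cell markers was 1.63. Cd3e, a chain of the T cell receptor complex, had 0 counts in all 4 NOD libraries of 2 weeks, 1.4, 3.06 and 3.36 CPM in NOD at 12 weeks, and at most 1.95 CPM in B6 (adjusted p = 0.126, edgeR). The natural killer list summed to 30.91 to 38.61 CPM in NOD at 12 weeks and at most 27.25 CPM in any other library. Of its 8 tested members 1 was called (12.5%), the receptor gene Klrk1 (5.27 ± 1.09). B and plasma cell markers summed to 415 to 722.2 CPM over the 14 libraries, with a mean log2 CPM of 2.492 to 2.783 in NOD at 2 weeks, 3.048 to 3.454 in NOD at 12 weeks and 2.817 to 3.364 in B6. Of 10 tested, 1 was called (10%), Cd22, an inhibitory receptor of B cells (2.81 ± 0.57).

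Markers of other myeloid cells and of vessels were read in the same way. Of 16 dendritic cell genes, Clec9a and Fscn1 had a higher change in NOD and Siglech a lower one. Together this was 18.8%, against 4.12% over all tested genes, with a median interaction of 2.30. The mean log2 CPM of the dendritic list was 3.882 to 4.014 in NOD at 12 weeks and at most 3.479 in any other library. Its sum did not show this order, with 462.6 to 566.7 CPM in NOD and 496.3 to 617.5 CPM in B6 at 12 weeks. Neither higher call held without NOD 12 weeks replicate 1 or 3, B6 2 weeks replicate 2 or B6 12 weeks replicate 3. Clec9a, a receptor of cross-presenting dendritic cells for dead cells, was at 0.136 to 2.57 CPM in NOD at 2 weeks and at 99.3, 109 and 171 CPM at 12 weeks. In B6 it was at 1.31, 30.1 and 3.06 CPM and then at 22.3 to 54.2 CPM, and its call held in 3 of 14 fits that each left out a library. Of 11 monocyte genes, Treml4 and Itgal had a higher change and Ccr2 a lower one (together 27.3%), and 1 was higher without NOD 12 weeks replicate 3. Monocyte markers had a mean log2 CPM of 3.904 to 4.213 in NOD at 12 weeks and at most 3.805 elsewhere. Their sum was not highest there: 575.2 to 692.5 CPM, against 757.1 to 966.7 CPM in NOD at 2 weeks. In B6 it was 632.2 to 1644 CPM at 2 weeks and 515.2 to 869.3 CPM at 12 weeks. The neutrophil list summed to 159.8 to 191 CPM in NOD at 12 weeks and at most 126 CPM in any other library. Its mean log2 CPM was 1.782 to 2.169 in NOD at 12 weeks and 1.87 to 2.523 in B6 at 12 weeks. Its median interaction was -1.05. Of 6 tested, 1 was called (16.7%), Csf3r, a growth factor receptor (1.29, adjusted p = 0.00982, edgeR). The endothelial list summed to 167.3 to 189.1 CPM in NOD at 12 weeks and at most 145.6 CPM elsewhere. Its mean log2 CPM overlapped between the strains at 12 weeks, with 2.361 to 3.322 in NOD and 2.073 to 3.233 in B6. Of 11 tested, 1 was called (9.09%), Eng, a co-receptor of the TGF-beta family (1.53), though not without NOD 12 weeks replicate 3. The part of other cells in the changes described above was not tested. The endocrine level that enters the covariate had a mean log2 CPM of 3.582 to 3.979 in B6 at 2 weeks. It was 2.025 to 2.861 in B6 at 12 weeks. With the covariate, endocrine material and the B6 age change therefore cannot be told apart.

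B6 2 weeks replicate 2 carried levels of several inducible genes that its group did not share, and these bear on the fitted sizes. Ly6a, also known as Sca-1, had 0.358, 26.1 and 0.49 CPM in the 3 B6 libraries of 2 weeks, against 0.0917 to 0.166 CPM in NOD at 2 weeks, 56.5 to 78.1 CPM in NOD at 12 weeks and 0.29 to 1.61 CPM in B6 at 12 weeks. Its fitted interaction was 12.03 with that library and 7.66 without it (adjusted p = 0.00121 and 2.69e-05, edgeR). Serpina3g (0.239, 21.5 and 2.08 CPM) and Iigp1 (1.07, 40.6 and 2.57 CPM) had the same spread in that group, and went from 10.81 to 8.03 and from 10.83 to 7.81. Few counts lie behind their low groups, so these sizes depend on the prior count. Cxcl9 went from 8.23 to 6.86. C3 (5.23), Cd36 (-4.49), Hpgd (-4.30), Lgals3bp (2.47) and Ifi30 (2.55) stayed called without that library.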

How the data were processed

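RNA of sorted islet macrophages was measured as whole read counts per gene. The counts were deposited by the authors as 1 table and are not normalized, judging by their values. The tools that the submitters' processing notes name are STAR, HTSeq and DESeq2, and the builds are mm10 and GRCm38. Versions and strand setting are not given in the sources used here. Of 41092 lines, 534 repeats of 286 gene IDs were removed. Symbols were found for 40254 of 40558 genes, coordinates came from GENCODE M21 (GRCm38), and promoter windows from RefSeq (GRCm38.p6). Some list members are not reported here.

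Groups came from the labels, which name no batch. The 14 libraries were fitted together in R 4.3.3 with edgeR 4.0.16 (filterByExpr by group, minimum count 10, minimum total 15; TMM scaling; robust quasi-likelihood, 1 mean per group), and p-values were adjusted by Benjamini-Hochberg over 17113 genes. The threshold for a call was an adjusted p of 0.05. The SE is the log2 value divided by the square root of F. Libraries held 19124 to 26491 genes with a count. A count of 0 allows up to 3 counts, 0.216 to 0.605 CPM, which covers counting error only. Replicates within a group differed beyond sampling noise. On simulated counts with 2, 4, 8 and 16-fold interactions, 5 of 48, 17 of 47, 18 of 50 and 31 of 48 changed genes were called, and 3 of 16214 genes in that fit were called though unchanged.

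Gene lists and the rule for named genes were chosen with earlier results of these data known. The rule takes called genes with a descriptive symbol and at least 10 CPM in 1 group: the 12 largest interactions in each direction, the 15 smallest adjusted p, up to 5 called members per list at any level, and the 6 smallest adjusted p in each of 5 patterns across strains and ages. Check genes were added, and some genes were left out for room. List members named beside these were chosen after their values were seen. Lists are described by counts and medians, with no set test. Alternatives were upper-quartile and RLE scaling, all genes with a count, a filter of 5 CPM in 3 libraries, DESeq2 1.42.0, limma-voom (limma 3.58.1) with sample weights, a fit of all 26 libraries, a fit without B6 4 weeks, the replicate number as a block, 2 covariates, a minimum log2 change of 1, and omission of each library.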

Additional observations from a re-analysis of the deposited data

Results flagged for a closer look

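The difference between strains in the change from 2 to 12 weeks was itself tested, and 705 genes passed. In the 2 groups of 4 libraries, 160 sets of values (50 genes and 30 lists in each group) were searched for a library far from the other 3, and 4 were found, where chance flags about 1 in 20. B6 12 weeks replicate 4 was low for Il7r, at 48.6 CPM against 77.5 CPM in the next library. The same library was low for the immediate early list, with a mean log2 CPM of 7.45 against 8.61. B6 12 weeks replicate 2 was high for Clec9a, at 54.2 CPM against 26.8 CPM. NOD 2 weeks replicate 3 was low for the cholesterol biosynthesis list, with a mean log2 CPM of 3.26 against 3.49.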

How the results depend on the processing

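Of 104 named genes, none reversed under any of 26 alternatives, 29 stayed called in all of them and 81 in all 14 omissions of a library. The interaction count of 705 (400 higher, 305 lower) became 1112 (644, 468) with DESeq2, 329 (205, 124) with all 26 libraries, 1191 (661, 530) without B6 4 weeks, 91 (50, 41) with the islet endocrine and acinar covariate and 112 (80, 32) at a minimum log2 change of 1, and without a filter 605 genes were higher. In the fit of all 26 libraries 315 of the 329 genes were among the 705, with a median ratio of standard errors of 1.19. Omitting single libraries gave 456 to 806 genes, 251 to 472 higher and 167 to 340 lower.

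The NOD age change (1069) became 1623 with DESeq2, 2882 with limma-voom, 599 with all 26 libraries, 1641 without B6 4 weeks, 695 with the islet covariate and 250 at a minimum change of 1 (672 to 1162 with omissions). The B6 age change (1086) became 1814, 555, 392, 1807, 319 and 45 in the same order (591 to 1284). The strain difference at 2 weeks (1080) became 2044 with DESeq2, 421 with all 26 libraries, 1880 without B6 4 weeks, 448 with the immediate early covariate and 176 at a minimum change of 1 (671 to 1270). At 12 weeks (1577) it became 875 with all 26 libraries, 369 with the islet covariate and 251 at a minimum change of 1 (950 to 1741). Other causes than these constructions were not tested.

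The replicate numbers showed no sign of pairing. Deviations of same-numbered libraries correlated by -0.115 to 0.101 and those of other pairs by -0.165 to 0.172. Of 14 libraries, 2 correlated best with their own number. With so few libraries per group, these values cannot exclude a pairing. With the replicate number as a block, 538 genes were called (311 higher, 227 lower), 864 for NOD age, 945 for B6 age, and 741 and 1504 for strain at 2 and 12 weeks.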
